A study of Rattus norvegicus with 16 samples.

Results

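The genes described here encode the enzymes that oxidise foreign and internal lipophilic compounds and attach water-soluble groups to them: the cytochromes P450 (Cyp), the glutathione transferases (Gst), the UDP-glucuronosyltransferases (Ugt) and the sulfotransferases (Sult). They were chosen by symbol alone, as every probe set of the rat array annotated with 1 gene whose symbol starts with Gst, Cyp and a digit, Ugt or Sult, leaving out the sterol demethylase Cyp51. A probe set is a group of short probes that together report 1 transcript. The choice gave 136 probe sets for 79 genes, of 8799 probe sets on the array and 4736 genes named by a single symbol. By family these were 79 probe sets for 48 P450 genes, 25 for 12 glutathione transferase genes, 18 for 9 sulfotransferase genes and 14 for 10 glucuronosyltransferase genes.

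Cytochromes P450 are haem proteins that insert an oxygen atom into steroids, fatty acids, bile acid precursors, vitamin D, retinoids and drugs, taking electrons from cytochrome P450 reductase (Por) in the endoplasmic reticulum or from ferredoxin (Fdx1) in mitochondria. Glutathione transferases, glucuronosyltransferases and sulfotransferases then couple glutathione, glucuronic acid or sulfate to reactive or lipophilic molecules so that they can be exported. Liver holds the highest amounts of most of these enzymes. In the eye, glutathione transferases are known for clearing the aldehydes and peroxides that arise from polyunsaturated lipids in the lens and in photoreceptors.

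The study measured total RNA of rat retina and of the pineal gland, the melatonin-producing gland of the brain, at hours 6 and 12 of Zeitgeber time (ZT) and of circadian time (CT), on 16 single-colour arrays. Retina had 3 arrays in each of the 4 conditions (ZT6, ZT12, CT6, CT12), 12 in all, and the pineal had 1 array in each, 4 in all. The labels give no strain, age, sex, genotype or lighting, and do not say whether arrays of a group came from separate animals, so the p-values below measure only the spread between these samples, which may be technical. The pineal array titled ZT 12 is described elsewhere in its label as hour 6 and is used here by its title, and the labels place all 4 pineal arrays under a retinal source. The retina arrays numbered 3 in each group carry brain in their source label, where arrays 1 and 2 carry eye.

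Of the measured pineal markers, Tph1, Ddc, Asmt and Aanat separated the arrays as titled, and Adrb1 went the other way. Tph1, which makes the serotonin precursor, lay between 14.00 and 14.64 log2 units in the pineal and at 7.89 or less on every retina array. Adrb1 read 6.02 to 7.11 in the pineal and 7.14 to 10.71 in the retina. The rod markers overlapped between tissues. The photoreceptor arrestin Sag had a retina median of 17.50 against at most 13.21 in the pineal. Its lowest retina array read 13.09. Pdc read 12.565 to 16.51 in the retina and 15.30 to 16.05 in the pineal. CT12 retina array 1 stood apart from the others: its median rank correlation with the other retina arrays was 0.699, against 0.918 to 0.954 for the other 11. Its rod marker mean was 12.79, against 16.03 or more on each of the other 11. Lens crystallin RNA was present on the retina arrays at unequal levels. The mean of 11 measured lens genes, of 15 listed, was 11.63 on ZT6 array 2 and 11.37 on CT6 array 3, and between 14.60 and 17.25 on the other 10. No array had a larger lens mean than CT12 arrays 1 and 2, and the counts of members and the values most affected by CT12 array 1 are given with and without it.

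Throughout, a level is log2(intensity + 16) of 1 probe set, and fold changes are on this scale. A step of 1 unit is a doubling of intensity at high intensity and more than a doubling near the bottom of the scale. A probe set was tested where its mean over the arrays compared reached the 40th percentile of the whole array. A difference was called where its limma p-value, adjusted by Benjamini-Hochberg over all 5244 probe sets tested, was under 0.05. Levels of different probe sets have no common scale and are not set against each other.

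In the retina 23 of 25 glutathione transferase probe sets (92%) passed the filter, covering all 12 genes. The share was 19 of 79 (24.1%) for the P450s, 3 of 18 (16.7%) for the sulfotransferases and 1 of 14 (7.14%) for the glucuronosyltransferases. Over all members 46 of 136 probe sets (33.8%, 30 genes) passed, against 62.6% of all probe sets with 1 symbol. The 90 that did not pass had mean levels between 4.81 and 8.85, with a median of 6.94, below the limit of 8.88, and the member just inside the limit had a mean of 8.94. The comparison of tissues could use 49 member probe sets (32 genes) and the pineal arrays alone 59, and 70 probe sets entered none of the fits.

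The 34 genes with no probe set in any fit were 24 P450s, 6 glucuronosyltransferases, 4 sulfotransferases and no glutathione transferase. Among them were the steroid-synthesis enzymes Cyp11a1, Cyp11b2, Cyp17a1 and Cyp19a1, the bile acid enzyme Cyp7a1, the polycyclic hydrocarbon oxidase Cyp1a1, the retinoic acid hydroxylase Cyp26b1, and the liver enzymes Cyp2c11, Cyp2c12, Cyp3a2 and Cyp3a18. The others of the P450 family were Cyp2a3, Cyp2b3, Cyp2b12, Cyp2c13, Cyp2c22, Cyp2c6v1, Cyp2c7, Cyp2g1, Cyp3a9, Cyp4a3, Cyp4b1, Cyp4f4 and Cyp4f5. The glucuronosyltransferases were Ugt1a5, Ugt1a9-ps, Ugt2b15, Ugt2b35, Ugt2b37 and Ugt8, and the sulfotransferases Sult1b1, Sult1c2a, Sult1d1 and Sult2a1. A mean below the filter was not read as absence of the RNA, since the sources hold no detection call.

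Many of these genes lie next to each other as copies of a common ancestor, so their probe sets may share RNA. Gstm5, Gstm7, Gstm2 and Gstm1 were neighbours on chromosome 2 of the RefSeq annotation, Gsta3 and Gsta1 on chromosome 9, Gstt2 and Gstt1 on chromosome 20, and 9 Cyp2b, Cyp2g, Cyp2a and Cyp2f genes on chromosome 1. Of the 136 probe sets, 60 carry the array's suffix for probes shared by similar transcripts (s_at) and 17 the suffix for a gene family (f_at). Levels of near-identical copies such as the Gstm genes are therefore uncertain as to which copy they report.

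The retina means of the genes named for each family were as follows, each on the scale of its own probe set. The 3 Gsta1 probe sets, for the alpha-class enzyme that reduces lipid hydroperoxides, had retina means of 14.37, 14.27 and 13.55. Gstp1, the pi-class enzyme, had 13.19 for probe set rc_AI012589_s_at, and Gstm1, the mu-class enzyme, had 12.75 for X04229cds_s_at. Among the other families Cyp2d4, a P450 of the brain, had 11.99 for rc_AA997886_s_at, the sulfotransferase Sult5a1 had 11.23, the phenol sulfotransferase Sult1a1 had 10.55 for L19998_g_at, the glucuronosyltransferase Ugt2b had 10.49 and Sult2a2 had 9.93.

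Spread over the 12 retina arrays differed greatly between members. Gsta1 probe set K01932_f_at ranged over 0.54 log2 units and Gstp1 X02904cds_s_at over 0.55, the smallest ranges among the 46. Gstm2 J02592_s_at ranged over 5.11, Cyp2b2 over 4.02, Gsta3 over 3.84, Gstk1 S83436_i_at over 3.43 and Gstt1 over 3.30. The median SD of the members within a group was 0.428 at CT12, against 0.203 to 0.285 in the other 3 groups. The same held for all probe sets tested, at 0.413 against 0.17 to 0.201, and without CT12 array 1 the CT12 medians were 0.241 for the members and 0.203 for all.

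The 4 promoters below belong to Gstp1 and Cyp1b1, the transferase and the P450 with the largest tissue differences, and to Gstk1 and Cyp2e1, the members called between regimes in the retina. They were picked after these values were seen. Each is the 250 bases before the annotated start in RefSeq's rat build GRCr8, 5′ to 3′ on the gene's own strand, with matches to the searched motifs in capitals. Gstp1 lies at chr1:210769706-210769955 (minus strand), Cyp1b1 at chr6:21094315-21094564 (plus), Gstk1 at chr4:72085364-72085613 (plus) and Cyp2e1 at chr1:205269717-205269966 (plus).
Gstp1: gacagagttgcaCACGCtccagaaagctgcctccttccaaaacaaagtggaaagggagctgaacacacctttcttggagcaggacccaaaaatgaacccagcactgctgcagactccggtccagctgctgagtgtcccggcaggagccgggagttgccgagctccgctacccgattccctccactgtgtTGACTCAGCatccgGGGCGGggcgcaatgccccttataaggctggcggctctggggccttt
Cyp1b1: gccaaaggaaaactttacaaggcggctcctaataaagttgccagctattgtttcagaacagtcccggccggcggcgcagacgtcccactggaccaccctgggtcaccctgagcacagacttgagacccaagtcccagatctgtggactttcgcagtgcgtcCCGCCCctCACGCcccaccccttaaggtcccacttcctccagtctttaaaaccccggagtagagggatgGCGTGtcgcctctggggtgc
Gstk1: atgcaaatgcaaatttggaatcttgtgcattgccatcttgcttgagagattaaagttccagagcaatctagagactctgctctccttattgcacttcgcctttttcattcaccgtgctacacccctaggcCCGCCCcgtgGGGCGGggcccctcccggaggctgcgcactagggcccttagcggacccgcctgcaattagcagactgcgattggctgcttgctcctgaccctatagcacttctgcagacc
Cyp2e1: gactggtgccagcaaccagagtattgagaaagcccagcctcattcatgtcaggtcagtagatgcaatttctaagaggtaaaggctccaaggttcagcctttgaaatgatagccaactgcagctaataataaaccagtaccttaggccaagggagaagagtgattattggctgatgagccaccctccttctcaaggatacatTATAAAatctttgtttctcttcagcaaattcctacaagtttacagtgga

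In the Gstp1 window TGANTCA, the letters of an AP-1 site, matched at bases -61 to -55 before the start, and the antioxidant response core TGACNNNGC matched at -61 to -53, so that these matches share their first bases. GGGCGG, the GC box, matched at -47 to -42, and GCGTG, the core read by the aryl hydrocarbon receptor, matched at -238 to -234 on the opposite strand. The Cyp1b1 window held GCGTG at -81 to -77 on the opposite strand and at -20 to -16 on the gene's strand, and the GC box at -89 to -84 on the opposite strand. The Gstk1 window held the GC box at -120 to -115 and -110 to -105, on opposite strands, and the Cyp2e1 window held the TATA box TATAAA at -49 to -44.

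Both strands of the windows of 62 member genes were searched, and the share among all 27457 RefSeq windows of the same length is given for each motif. TATAAA was in 21 member windows (33.9%, against 13.1% of all windows), GGGCGG in 16 (25.8%, against 32.4%) and GCGTG in 10 (16.1%, against 27.2%). TGACNNNGC was in 6 (9.68%, against 10.2%) and TGANTCA in 5 (8.06%, against 6.36%). TAATCC, the core read by CRX and OTX factors, was in 3 (against 6.33%), the E-box CACGTG in 1 (against 5.79%) and the cyclic AMP element TGACGTCA in 0 (against 1.7%). A match describes letters in a window and not a bound site.

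The tissue comparison asked which of these enzymes differ between the pineal gland and the retina. The P450s called were mostly higher in the pineal, and the glutathione transferases called were mostly lower. Of 49 member probe sets 39 were called (79.6%), 20 higher and 19 lower in the pineal. Over all probe sets tested 75.8% were called, 39.4% higher and 36.4% lower, so the members' share lay near that of the array as a whole. By family 13 P450 probe sets were higher and 3 lower of 22, while 3 glutathione transferase probe sets were higher and 16 lower of 22. The median difference was 0.54 for the P450s and -0.97 for the glutathione transferases. Cyp1b1, Cyp7b1, Cyp2d2, Cyp2a2 and Sult1a1 L19998_at passed the filter of the tissue fit but not that of the retina fit. They entered through their pineal level, which favours a higher pineal value. Without them, a count added after seeing the data, 34 of 44 members were called (77.3%), and the P450 count was 9 higher and 3 lower of 18, with a median of 0.39. That count still holds members with a pineal mean under the limit of 8.82, which entered through their retina level. Among them were Gstp1 X02904cds_s_at (6.16), Gstt2 rc_AI138143_at (8.73), Gsto1 AB008807_at (8.41), Cyp2d4 U48220_at (7.64) and Cyp2b2 (8.09). Each of these was called lower, the direction that such entry favours. Of the sulfotransferases 3 of 4 were higher (2 of 3 without Sult1a1 L19998_at), and the only glucuronosyltransferase tested, Ugt2b, was higher by 0.73 log2 units. Groups did not overlap for 20 of the 49 (40.8%), against 51.6% of all tested.

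**Figure D1:**
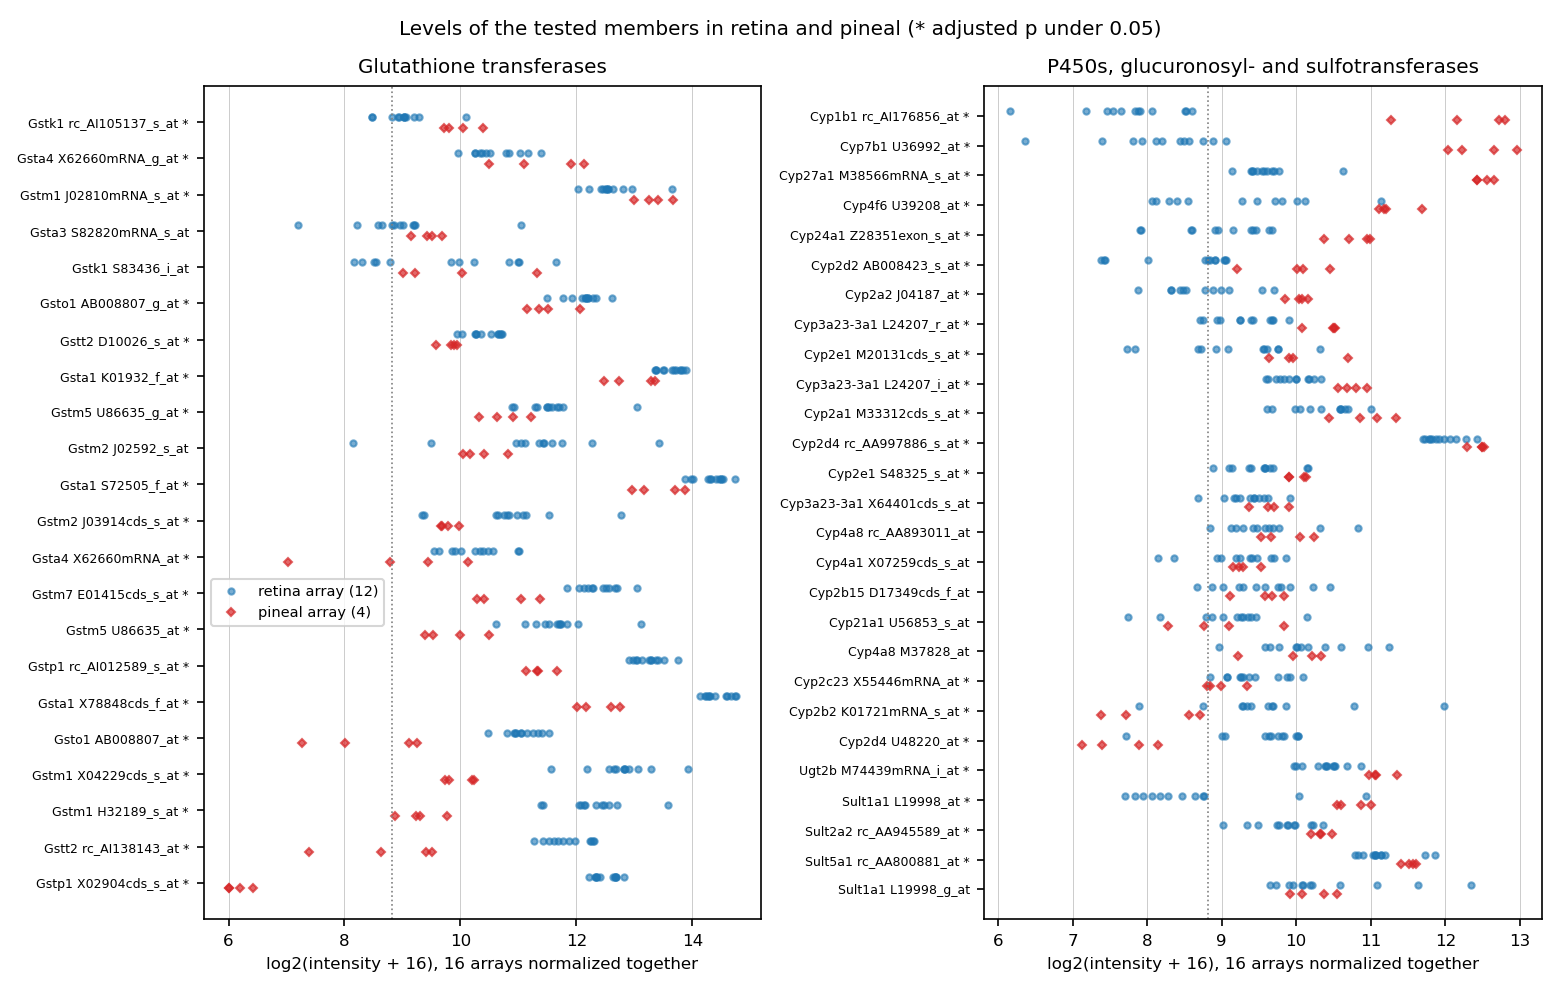
Levels of the 49 tested member probe sets on each of the 12 retina arrays (blue circles) and 4 pineal arrays (red diamonds), as log2(intensity + 16) after the 16 arrays were normalized together, with a star where the adjusted p was under 0.05 and the dotted line at the filter limit of 8.82. Most glutathione transferases sit to the left in the pineal, led by Gstp1 X02904cds_s_at at 6.01 to 6.42, and Cyp1b1, Cyp7b1 and Cyp27a1 sit far to the right.

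Cyp1b1, a P450 that hydroxylates oestradiol and metabolises retinoids, was at 12.72, 12.80, 12.15 and 11.28 in the pineal at ZT6, ZT12, CT6 and CT12 (probe set rc_AI176856_at). The 12 retina arrays ran from 6.16 to 8.61 with a median of 7.86. On this probe set every pineal array lay above every retina array. The difference was 4.46 ± 0.34 (SE), 22.0-fold (95% interval 13.2 to 36.8, limma adjusted p = 3.09e-08). The probe set entered the fit through its pineal level, so its p-value and the gap between tissues are not free of that choice. The CT12 array was the lowest of the 4 pineal arrays on all 4 Cyp1b1 probe sets. On U09540_at the pineal, on its values as deposited, read 9.87, 9.86 and 9.91 at ZT6, ZT12 and CT6 and 6.74 at CT12. The retina, normalized on its own arrays, read 7.04 to 9.09 at hour 6 and 6.93 to 8.84 at hour 12. On X83867cds_s_at pineal CT12 read 6.66, against 7.685 to 8.63 at hour 6 and 7.19 to 8.37 at hour 12 in the retina. On U09540_at and X83867cds_s_at, neither of which passed the tissue filter, the CT12 pineal array was thus not above the retina. It was above the retina on U09540_g_at, which did not pass that filter either. There pineal CT12 read 9.91, against 5.92 to 8.49 at hour 6 and 6.76 to 8.63 at hour 12 in the retina. With 1 array per condition the CT12 pineal level has no replicate check.

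Cyp7b1, which hydroxylates oxysterols and neurosteroids, was at 12.65, 12.04, 12.96 and 12.23 in the pineal in the same order, against 6.36 to 9.06 (median 8.33) in the retina. The groups did not overlap, and the difference was 4.30 ± 0.35, 19.7-fold (11.7 to 33.1, adjusted p = 5.46e-08). Like Cyp1b1, Cyp7b1 entered the fit through its pineal level, and the same limit holds. Cyp27a1, the mitochondrial sterol hydroxylase, was at 12.66, 12.43, 12.56 and 12.43 in the pineal, against 9.14 to 10.63 (median 9.55) in the retina, 2.91 ± 0.19 higher, 7.51-fold (5.63 to 10, adjusted p = 6.7e-09). On this probe set, M38566mRNA_s_at, the 4 pineal arrays lay close together, above all 12 of the retina. The other Cyp27a1 probe set, Y07534cds_s_at, passed only the pineal filter and did not show this gap. With the tissues scaled separately, it read 8.9, 8.04, 8.66 and 8.42 in the pineal in the same order. Its retina means were 8.29 at ZT6, 8.46 at ZT12, 8.59 at CT6 and 9.24 at CT12, where the arrays ran from 8.16 to 10.79.

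Other P450s higher in the pineal were Cyp4f6, a fatty acid hydroxylase, by 2.05, and Cyp24a1, the mitochondrial enzyme that inactivates vitamin D, by 1.78. Cyp2d2 was higher by 1.47 and Cyp2a2 by 1.28, and the 2 probe sets of Cyp3a23-3a1 that passed were higher by 1.10 and 0.80. Cyp2a1 was higher by 0.60, and both probe sets of Cyp2e1, the ethanol-oxidising enzyme, were higher, by 0.92 and 0.49. The 3 called lower were Cyp2d4 U48220_at with a difference of -1.87, Cyp2b2, the phenobarbital-inducible enzyme, with -1.54, and Cyp2c23 X55446mRNA_at with -0.44. Cyp2c23 is an arachidonate epoxygenase. The other Cyp2d4 probe set, rc_AA997886_s_at, was higher in the pineal by 0.49, so the probe sets of Cyp2d4 were called in opposite directions. Cyp2c23 rc_AI169372_g_at passed only the pineal filter and was not lower there. With the tissues scaled separately it read 9.06, 8.89, 9.42 and 9.04 in the pineal at ZT6, ZT12, CT6 and CT12. Its retina means were 7.98, 8.83, 8.43 and 8.06. Cyp2c23 U04733_s_at, below the filters, read 7.45, 7.39, 8.53 and 8.14, against retina means of 7.18, 8.02, 6.69 and 7.75.

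With the lens gene level as a covariate Cyp2d2 (0.65, adjusted p = 0.472) and Cyp2a2 (0.66, adjusted p = 0.237) were no longer called. P450s tested and not called were Cyp21a1 (-0.06), Cyp4a1 (0.10), both Cyp4a8 probe sets (0.27 and -0.19), Cyp2b15 (0.03) and Cyp3a23-3a1 X64401cds_s_at (0.30, adjusted p = 0.0752).

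Gstp1 had the largest tissue difference of any member. Probe set X02904cds_s_at was at 6.19, 6.01, 6.42 and 6.01 in the pineal at ZT6, ZT12, CT6 and CT12, 6.16 ± 0.20 (SD, n = 4), against 12.22 to 12.83 in the retina, 12.51 ± 0.20 (n = 12). The tissues were far apart with little spread inside either, and the difference was -6.35 ± 0.14, 81.7-fold (66.4 to 100, adjusted p = 2.47e-13). The pineal level lay well under the filter limit, where the offset of 16 weighs on the value: with an offset of 64 the difference was -5.62 and with an offset of 1 it was -6.69. The other Gstp1 probe set, rc_AI012589_s_at, was at 11.14 to 11.67 in the pineal and 12.91 to 13.74 in the retina, a difference of -1.88, 3.69-fold (2.97 to 4.58, adjusted p = 3.22e-08). Both probe sets were lower on every pineal array than on every retina array, by very different amounts.

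The theta-class Gstt2 was lower in the pineal on both probe sets. On rc_AI138143_at the pineal arrays read 9.41, 7.39, 9.50 and 8.63, and the retina 11.27 to 12.31, a difference of -3.12 (8.67-fold, adjusted p = 6.79e-07). On D10026_s_at the difference was -0.61. The omega-class Gsto1, which reduces dehydroascorbate, was lower by both probe sets, with differences of -2.66 and -0.60, and the 3 Gsta1 probe sets had differences of -2.05, -0.90 and -0.66.

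The mu class was lower in the pineal on 6 of 8 probe sets. Gstm1 H32189_s_at was at 8.88 to 9.76 in the pineal and 11.39 to 13.59 in the retina, a difference of -2.98 (7.9-fold), and Gstm1 X04229cds_s_at differed by -2.79 (6.89-fold, adjusted p = 1.31e-07). The third Gstm1 probe set, J02810mRNA_s_at, was higher in the pineal by 0.72 (1.65-fold, adjusted p = 0.00642), so Gstm1 was called in both directions by different probe sets. Gstm7 differed by -1.61, Gstm5 by -1.80 and -0.79, and Gstm2 by -1.04 (adjusted p = 0.0192) and by -0.81, which did not pass (adjusted p = 0.189). Lens gene levels moved with the same contrast, at a mean of 9.28 to 9.73 on the pineal arrays, and with them as a covariate the Gstm1 X04229cds_s_at difference was -1.39 (adjusted p = 0.00175), that of Gstm5 U86635_at -0.77 (adjusted p = 0.302) and that of Gstt2 rc_AI138143_at -2.08 (adjusted p = 0.0122).

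Gsta4, which conjugates hydroxynonenal, was called lower by X62660mRNA_at, with a difference of -1.40, and higher by X62660mRNA_g_at, 0.80. Gstk1, the kappa-class enzyme of mitochondria and peroxisomes, was higher by rc_AI105137_s_at, 0.96 (adjusted p = 0.00157). That call was lost on the values as deposited (0.46, adjusted p = 0.0553) and with the lens covariate (adjusted p = 0.0843), and the other Gstk1 probe set differed by 0.16 (adjusted p = 0.67). Gsta3 differed by 0.53 (adjusted p = 0.226).

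Among the sulfotransferases Sult1a1 L19998_at was higher in the pineal by 2.12 (4.36-fold, adjusted p = 2.87e-05), although its highest retina array, 10.93, lay above 3 of the 4 pineal arrays (10.55, 10.60 and 10.87). The second Sult1a1 probe set, L19998_g_at, differed by -0.23 (adjusted p = 0.424). Sult2a2, a hydroxysteroid sulfotransferase, was higher by 0.51 (adjusted p = 0.0185) and Sult5a1 by 0.38 (adjusted p = 0.0354). Ugt2b was at 10.97 to 11.36 in the pineal, above the retina range of 9.97 to 10.87 (1.66-fold, adjusted p = 0.000347). In tissue RNA of this kind, fewer cells of a type and less RNA per cell cannot be told apart.

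The partners of these enzymes also differed between tissues, in both directions. Of 23 probe sets for 12 P450 partners and xenobiotic receptors, 6 were higher and 14 lower in the pineal (87% called, against 75.8% of all tested). Fdx1, the electron donor of mitochondrial P450s, was higher by 3.85 ± 0.20 (adjusted p = 3.99e-10), while Por, the donor of microsomal P450s, was lower on all 3 probe sets, with differences of -3.19, -1.37 and -0.31. The aryl hydrocarbon receptor Ahr, which induces Cyp1b1 and Cyp1a1, was lower on both probe sets, with differences of -3.12 and -2.39.

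Of 22 probe sets for 14 genes of glutathione supply and peroxide removal, 9 were higher and 9 lower (81.8% called). Nfe2l2, the factor that acts on the antioxidant response element, was higher by 3.08 and 2.33, and the peroxide-reducing Gpx4 differed by -3.80 and the glutathione reductase Gsr by -2.37. Gclm, a subunit of the enzyme that starts glutathione synthesis, was higher by 3.53 and 1.98 on separate probe sets and had a difference of -1.52 on another, and the 3 probe sets of Prdx6 were called in both directions (-4.58, -1.17 and 1.65). Of 14 probe sets for 12 genes of other conjugation, hydrolysis and export, 6 were higher and 4 lower (71.4% called), led by the monoamine oxidase Maob (4.55 higher) and by Ugdh (2.19 higher), which makes the glucuronic acid donor.

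Within the pineal the hours could not be tested, with 1 array per condition. Of 59 member probe sets past the pineal filter 0 differed by 1 log2 unit or more between the hours with one sign in both regimes, against 2.56% of the 5244 probe sets kept. Sult1c3 L22339_g_at came closest, at 10.77 and 9.77 at ZT6 and ZT12 and at 10.90 and 9.91 at CT6 and CT12, differences of -1.01 and -0.98. Gstm7 read 11.16 and 10.02 under ZT and 10.77 and 9.84 under CT, differences of -1.14 and -0.93. The members' median difference between hours was -0.25 under ZT and 0.03 under CT, against -0.07 in each regime for all probe sets kept. Without the filter Cyp2c22 (1.62 and 1.25) and Sult1d1 (1.13 and 1.73) passed 1 log2 unit in both regimes.

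In the retina the hour, the regime and their interaction were compared over the 4 groups. The only comparison with called members was CT12 against ZT12, with Gstk1 lower and Cyp2e1 higher at CT12, 2 of 46 (4.35%), against 0.61% of all probe sets tested (0.114% higher and 0.496% lower). No member was called by limma in ZT12 minus ZT6 (background 0.286%), CT12 minus CT6 (0.0381%), CT6 minus ZT6 (0%), hour 12 minus hour 6 (0.21%), CT minus ZT (0%) or the interaction of hour and regime (0.0191%). At an unadjusted p under 0.05 the members numbered 6 in ZT12 minus ZT6 (13%, against 8.62% of all tested), 18 in CT12 minus CT6 (39.1%, against 27.4%) and 2 in CT6 minus ZT6 (4.35%, against 5.07%). They numbered 13 in CT12 minus ZT12 (28.3%, against 26.2%), 10 for the hour (21.7%, against 17.6%), 3 for the regime (6.52%, against 11.8%) and 13 for the interaction (28.3%, against 16%). Once CT12 array 1 was left out, the 18 became 13 of 44 (29.5%, against 19.1%), and the counts of 13 became 10 (22.7%, against 19%) for CT12 minus ZT12 and 11 (25%, against 17.1%) for the interaction. Comparisons that share a group share its 3 arrays.

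Gstk1 probe set S83436_i_at read 9.95, 8.41 and 8.64 at ZT6, 10.93, 11.71 and 11.09 at ZT12, 10.34, 11.09 and 10.09 at CT6, and 8.89, 8.27 and 8.62 at CT12. It was high at ZT12 and CT6 and low at ZT6 and CT12, with group means of 9.0 ± 0.83, 11.24 ± 0.41, 10.50 ± 0.52 and 8.59 ± 0.31 (SD, n = 3 each), and the 3 CT12 arrays did not overlap with ZT12 or CT6. CT12 minus ZT12 was -2.65 ± 0.41 (SE), 6.27-fold (3.35 to 11.7, adjusted p = 0.0319). The difference ZT12 minus ZT6 was 2.24 (adjusted p = 0.0639) and CT12 minus CT6 was -1.91 (adjusted p = 0.0953). Both sets of 3 arrays were apart, in opposite directions, and neither difference nor their interaction of -4.15 ± 0.58 (adjusted p = 0.0585) passed. Hours apart in opposite directions under ZT and CT occurred for 3 of the 46 members (6.52%), Gstk1, Cyp2e1 and Cyp3a23-3a1, against 3.32% of all tested.

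The Gstk1 call depended on single arrays. With each retina array left out in turn the difference stayed between -2.81 and -2.41, with adjusted p between 0.0146 and 0.147, and passed in 6 of 12 cases. It passed without CT12 array 1 (-2.81, adjusted p = 0.03), and then ZT12 minus ZT6 passed too (2.25, adjusted p = 0.0286). It did not pass without ZT12 array 1 (adjusted p = 0.0664), ZT12 array 2 (0.147), ZT12 array 3 (0.095), CT12 array 2 (0.0648), CT6 array 1 (0.0569) or ZT6 array 3 (0.0606). Without all 4 retina arrays numbered 3 the difference was -2.74 and did not pass (adjusted p = 0.112). The second Gstk1 probe set, rc_AI105137_s_at, did not follow: CT12 minus ZT12 was 0.57 (adjusted p = 0.254) and ZT12 minus ZT6 was -0.27. The pineal arrays read 8.72 at ZT6, 9.61 at ZT12, 11.10 at CT6 and 8.80 at CT12 on S83436_i_at.

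**Figure D2:**
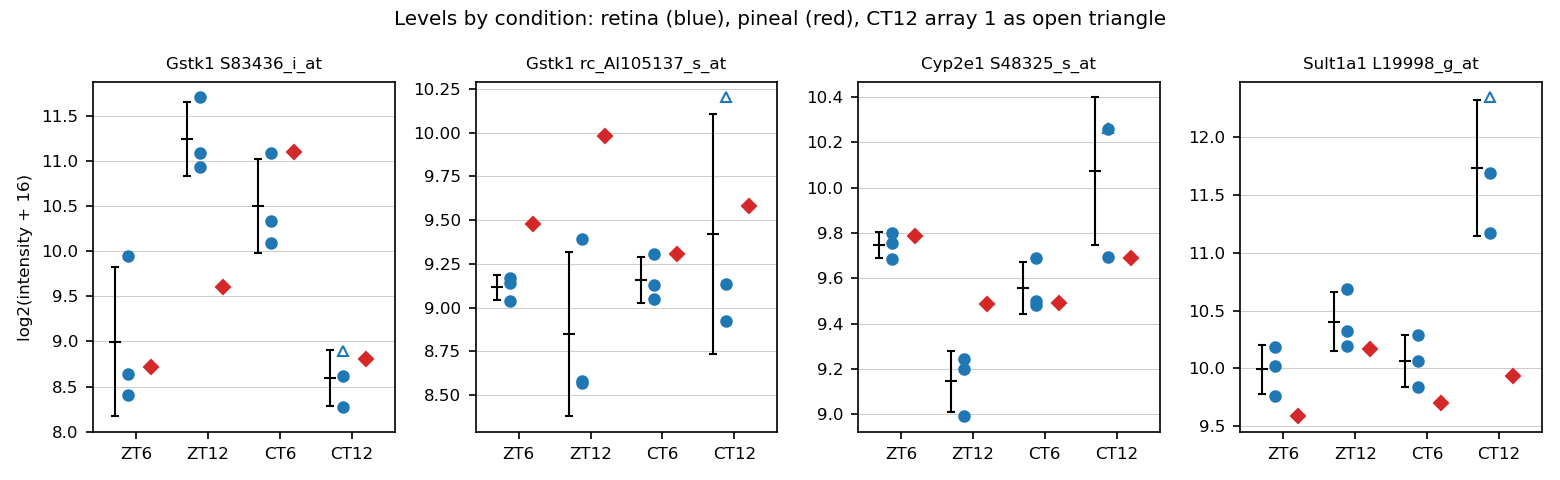
Levels of 4 member probe sets on each array by condition, retina as blue circles (CT12 array 1 as an open triangle, drawn partly under a circle for Cyp2e1) and pineal as red diamonds, as log2(intensity + 16) with retina and pineal scaled separately. Bars are the retina mean ± SD of 3 arrays. Gstk1 S83436_i_at is low at ZT6 and CT12 and high at ZT12 and CT6, a pattern that its other probe set does not share, and Sult1a1 is highest on the 3 CT12 arrays.

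Cyp2e1 probe set S48325_s_at read 9.76, 9.80 and 9.69 at ZT6, 9.20, 8.99 and 9.24 at ZT12, 9.69, 9.50 and 9.48 at CT6, and 10.26, 9.70 and 10.26 at CT12. ZT12 held the 3 lowest values of the 12 arrays, and all 3 CT12 arrays lay above every ZT12 and CT6 array. CT12 minus ZT12 was 0.93 ± 0.17, 1.9-fold (1.46 to 2.48, adjusted p = 0.0469). The hour differences were -0.60 under ZT (adjusted p = 0.29) and 0.51 under CT (adjusted p = 0.137), neither of which passed. With each array left out in turn the regime difference was 0.84 to 1.12, with adjusted p between 0.0225 and 0.221, and passed in 2 of 12 cases, without CT12 array 2 and without CT12 array 3. Without CT12 array 1 it was 0.84 (adjusted p = 0.0588), and without all arrays numbered 3 it was 0.89 (adjusted p = 0.126). The second Cyp2e1 probe set, M20131cds_s_at, was 1.34 higher at CT12 than at ZT12 (adjusted p = 0.161).

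Sult1a1 L19998_g_at had the smallest p-value of the members in CT12 minus CT6 and did not pass. The CT12 arrays read 12.34, 11.69 and 11.17, and the other 9 retina arrays lay between 9.76 and 10.69, so CT12 stood above all of them. CT12 minus CT6 was 1.67 (adjusted p = 0.0754), CT12 minus ZT12 was 1.33 (adjusted p = 0.0723) and hour 12 minus hour 6 was 1.04 (adjusted p = 0.0713). Without CT12 array 1 the hour difference was 0.89 and passed (adjusted p = 0.0198), against 1.3% of all probe sets called in that fit.

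Cyp24a1 read 8.0, 8.70 and 8.02 at CT12 and 9.54, 9.75 and 9.58 at CT6, a difference of -1.38 (adjusted p = 0.0953). Cyp2b2 read 12.02, 10.87 and 9.98 at CT12 and 9.79, 8.86 and 8.0 at CT6, a difference of 2.08 (adjusted p = 0.111), with its highest level on CT12 array 1. Without that array the differences were -1.27 (adjusted p = 0.0962) and 1.55 (adjusted p = 0.128). In both, the CT12 and CT6 arrays did not overlap. Cyp2d4 rc_AA997886_s_at was 0.49 higher at CT12 than at CT6 (adjusted p = 0.119), Cyp2b15 was 1.11 higher (adjusted p = 0.124) and Gsta4 X62660mRNA_g_at was 0.78 higher (adjusted p = 0.126).

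Cyp2c23 X55446mRNA_at read 10.03, 10.20 and 9.99 at ZT6 and between 8.95 and 9.87 on the other 9 retina arrays. ZT6 was thus above all others on this probe set. ZT12 minus ZT6 was -0.73 (adjusted p = 0.303) and CT6 minus ZT6 was -0.77 (adjusted p = 0.827). Without CT12 array 1 ZT12 minus ZT6 was -0.74 and passed (adjusted p = 0.0305), where 1.51% of all probe sets were called. The Cyp2c23 probe sets below the retina filter went the other way. From ZT6 to ZT12 the mean of rc_AI169372_g_at went from 7.98 to 8.83, and that of U04733_s_at from 7.18 to 8.02. Gsta1 K01932_f_at was the only member whose 6 hour 12 arrays (13.61 to 13.83) all lay above its 6 hour 6 arrays (13.29 to 13.58), by 0.33 on average (adjusted p = 0.184), and 1.53% of all probe sets tested were apart in this way.

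Differences from CT6 and ZT12 to CT12 were above 0 for most members, although 1 passed the test in that direction, Cyp2e1 in CT12 minus ZT12. In CT12 minus CT6 the difference was above 0 for 39 of 46 (84.8%), with a median of 0.35, against 45.9% and -0.06 for all probe sets tested. In CT12 minus ZT12 it was above 0 for 35 of 46 (76.1%), with a median of 0.36, against 48.3% and -0.03. In ZT12 minus ZT6 it was above 0 for 23 of 46, and in CT6 minus ZT6 for 20 of 46. Without CT12 array 1, 44 members passed the filter, and the counts were 34 of 44 with a median of 0.34 in CT12 minus CT6 and 31 of 44 with a median of 0.31 in CT12 minus ZT12, against 44.9% and 47.5% of all tested. The groups did not overlap for 17 members (37%) in CT12 minus CT6 and 19 (41.3%) in CT12 minus ZT12, against 26.5% and 28.8% of all tested. Leaving out CT12 array 1 gave 18 of 44 (40.9%) and 21 of 44 (47.7%), against 32.7% and 36.3%. They did not overlap for 11 (23.9%) in ZT12 minus ZT6 and 7 (15.2%) in CT6 minus ZT6, against 25.4% and 17.2%.

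Markers of other tissues differed in the same contrasts. In CT12 minus ZT12 the median difference was 1.59 for the lens markers, 1.68 for those of pigment epithelium and choroid, 1.25 for the blood markers, -1.63 for the rod markers and -1.50 for the ganglion cell markers. Leaving out CT12 array 1 gave medians of 1.21, 1.74, 1.15, -0.65 and -0.34, so that array carried most of the rod and ganglion cell values. The pigment epithelium markers, 2 measured genes of 10 listed, had mean levels of 12.36 to 13.51 on the CT12 arrays and 10.73 to 11.92 on the ZT12 arrays, and the 2 measured blood genes of 5 listed 13.21 to 13.74 and 12.01 to 12.52. The summed intensity of the lens genes was 1079000 to 1924000 on the CT12 arrays, 701100 to 1444000 at ZT12, 51800 to 1088000 at CT6 and 58180 to 833100 at ZT6, and no lens gene measured was at 0. Their part in the members' differences was not tested beyond the fits with the lens level as a covariate, in which Gstk1 (-2.86, adjusted p = 0.0572) and Cyp2e1 (0.93, adjusted p = 0.123) kept their size and were not called.

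**Figure D3:**
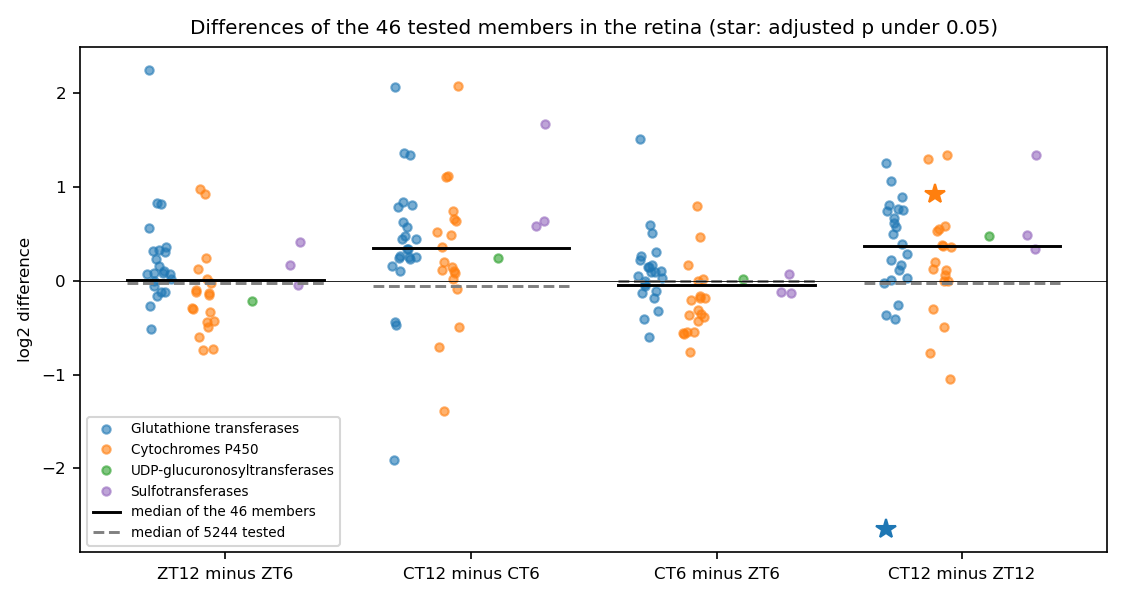
Log2 differences of the 46 tested member probe sets in 4 retina comparisons, 1 point per probe set, coloured by enzyme family, with the members' median as a solid line and the median of all 5244 probe sets tested as a dashed line. The members' medians are 0.35 in CT12 minus CT6 and 0.36 in CT12 minus ZT12, and the 2 stars are the probe sets called, Gstk1 and Cyp2e1.

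By family, the glutathione transferases were above 0 in CT12 minus CT6 for 20 of 23, with a median of 0.34, and the P450s for 15 of 19, with a median of 0.20. With CT12 array 1 left out these were 16 of 22, with a median of 0.20, and 14 of 18, with a median of 0.40. All 8 mu-class probe sets were above 0 in CT12 minus CT6 and in CT12 minus ZT12, with medians of 0.60 and 0.71, and none was called. With that array left out the medians were 0.39 and 0.33, and 7 of 8 were above 0 in CT12 minus CT6, the exception being Gstm5 U86635_at (-0.10). Gstm2 J02592_s_at read 13.36, 12.28 and 11.80 at CT12 and 11.50, 11.50 and 8.25 at CT6, a difference of 2.06 (adjusted p = 0.155), or 1.63 without that array (adjusted p = 0.335). Both Gsto1 probe sets were below 0 in CT12 minus CT6, with a median of -0.46 (-0.31 without that array), and the median of the Gstp1 probe sets was 0.13 (0.02 without it).

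Gstm1 and Gstm2 levels were lowest where lens RNA was lowest. On ZT6 array 2 and CT6 array 3, the arrays with little lens RNA, all 3 Gstm1 probe sets and both Gstm2 probe sets lay below the other 10 retina arrays. Gstm1 X04229cds_s_at read 11.63 and 12.20 there, against 12.54 to 13.86 elsewhere, and Gstm2 J02592_s_at read 9.61 and 8.25, against 11.04 to 13.36. These 5 were all such members of 46 (10.9%), against 5.55% of all probe sets tested, and Gsto1 AB008807_g_at was the only member above (2.17%, against 5.09%). The pair of arrays was chosen by the lens level, not by the labels, and no test was made between them and the rest.

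Within the other 10 retina arrays the relation to the mean lens level was computed for the 46 members. Gstm1 X04229cds_s_at had the largest coefficient, with Pearson r = 0.819 (permutation p = 0.00192, adjusted p = 0.0807) and Spearman rho = 0.758 (permutation p = 0.015, adjusted p = 0.171). Without CT12 arrays 1 and 2, the farthest from the median, r was 0.53. None of the 46 adjusted p-values was under 0.05. For Cyp2b2 r was 0.774 (permutation p = 0.0084, adjusted p = 0.0807; rho = 0.648, permutation p = 0.0486, adjusted p = 0.245) and 0.156 without those arrays. For Sult1a1 L19998_g_at it was 0.773 (permutation p = 0.0101, adjusted p = 0.0807; rho = 0.6, permutation p = 0.0734, adjusted p = 0.245) and 0.192 without them, so that these relations rested on CT12 arrays 1 and 2.

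**Figure D4:**
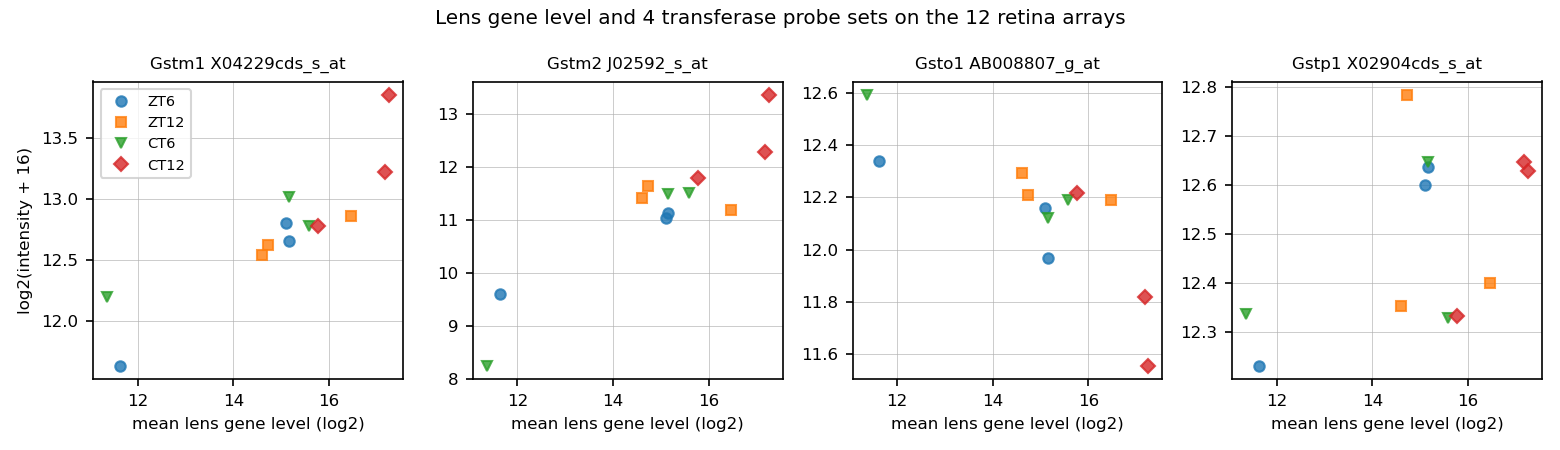
Level of 4 glutathione transferase probe sets, as log2(intensity + 16), against the mean log2 level of the lens genes on the 12 retina arrays, coloured and shaped by condition. ZT6 array 2 and CT6 array 3 lie apart at 11.63 and 11.37 on the lens axis, with Gstm1 and Gstm2 at their lowest there and Gstp1 within its range of 0.55.

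In the retina the partner genes were compared only in CT12 minus ZT12. There 1 of their probe sets was called, and 0.61% of all probe sets tested. The number of partner probe sets in this comparison is not given here, so the count is not read against that share. The other Ahr probe set of the tissue comparison was not called here. Ahr AF082125_s_at read 7.74, 8.09 and 8.60 at CT12 and 11.24, 12.06 and 11.13 at ZT12, with no overlap, a difference of -3.33 ± 0.38 (adjusted p = 0.0188). Without CT12 array 1 it was -3.14 (adjusted p = 0.0169). At hour 6 it read 10.16, 10.48 and 10.64 under ZT and 9.83, 10.98 and 11.20 under CT, so CT12 was below all 9 other arrays.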

How the data were processed

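Total RNA of 12 retina and 4 pineal samples was measured on single-colour oligonucleotide arrays. The values the authors deposited are, judged from their range, linear intensities per probe set, with a nearly equal trimmed mean on every array; how the scans were background-corrected and summarized is "not given in the sources used here". The number of arrays limits the precision. Genes were named from the platform annotation, and all 136 members had their gene ID in RefSeq. Probe sets with several symbols (34 of these families, 12 naming Ugt1a genes) and 5 for Cyp51 were left out.

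Array medians differed by 27.9% over the 12 retina arrays, which were quantile normalized, as were all 16 together (61.5%) for the tissue comparison. The pineal arrays (8.41%) were used as deposited for the hours. Values became log2(intensity + 16). The filter limits were 8.88 for retina, 8.82 for tissue and 8.39 for pineal. Retina arrays were fitted in limma 3.58.1 (R 4.3.3) as 4 groups, and tissue with condition as a covariate, two-sided, with 4 pairwise retina contrasts, 2 main effects, 1 interaction and 1 tissue contrast. Promoter, figure and permutation steps used Python 3.11.15.

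Named members were those called, up to 4 each way by p in a retina comparison, the 10 largest each way in tissue, those past 1 log2 unit in the pineal under both regimes, 3 genes per family by mean over all 16 arrays, the 5 largest retina ranges, and genes with several probe sets past the filter. Members and lists were chosen with earlier results of these data known. On simulated data the CT12 against ZT12 fit of 5244 probe sets recovered 50 of 100 2-fold and 85 of 100 4-fold changes with 10 false calls, and the tissue fit 72 and 92 with 8. The simulation gave a probe set the same spread in every group. In the data CT12 was wider, with a median SD of 0.413 against 0.17 to 0.201, so the rates need not hold for that contrast. Same-numbered arrays of different groups were about as alike as others. Their 18 pairs correlated between -0.413 and 0.414 (median 0.012), against -0.519 to 0.533 (median -0.029) for 36 pairs of other numbers. A pairing of the samples is not excluded by this. Alternatives were other offsets, filters, normalizations, priors, array weights, a lens covariate, a replicate block, only the groups compared, and each array left out.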

Additional observations from a re-analysis of the deposited data

Results flagged for a closer look

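Of the members, 3 probe sets had hour differences of opposite sign under ZT and under CT, with non-overlapping groups in each regime (6.52% of 46, against 3.32% of all 5244 tested), and in none did limma's interaction pass. For Gstk1 S83436_i_at the hour difference was 2.24 under ZT and -1.91 under CT, an interaction of -4.15 (adjusted p = 0.0585). For Cyp2e1 S48325_s_at it was -0.60 and 0.51, an interaction of 1.115 (adjusted p = 0.162). For Cyp3a23-3a1 X64401cds_s_at, a P450 of steroid and drug oxidation, it was -0.30 and 0.63, an interaction of 0.93 (adjusted p = 0.204).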

How the results depend on the processing

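The count of members called between tissues, 39, was 23 with the filter at the 60th percentile, 23 with the lens level as a covariate and 76 with no filter. For CT12 minus ZT12, with 2 in the report, array weights gave 23 and the offset of 64, no filter, a trended robust prior and the values as deposited gave 1 each. The 60th percentile filter, the lens covariate, only the compared groups, the replicate block (pairing by title number) and leaving out all arrays numbered 3 gave 0 each. With each array left out the count ran from 0 to 7, with 7 without CT12 array 3. For CT12 minus CT6, with 0, array weights gave 25, the 60th percentile filter 1, and arrays left out 0 to 10, with 10 without CT12 array 3. For ZT12 minus ZT6 array weights gave 3, the compared groups alone 2 and arrays left out 0 to 2. Array weights gave 12 for the hour (0 to 2 with arrays left out), 13 for the interaction (0 to 1) and 7 for the regime. Without a filter the pineal count was 2. The causes were not tested, and the array-weights fit stopped before convergence. The replicate block changed no other count of calls by over 1.5 times. Of 1586 alternatives on 68 named values, 1510 kept direction and side of the threshold, 34 lost a call, 41 gained one, and the hour difference of Gsto1 AB008807_g_at turned from negative to 0.033 with the lens covariate. With 3 arrays a group, a difference that missed the threshold is not shown to be absent.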
